A study of Mus musculus with 6 samples.

Results

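This report describes 4 of the 6 arrays of the series, the 2 titled 15-2KO_mock and the 2 titled WT, chosen by their titles, and compares them across all genes. Each array, an Agilent array of the whole mouse genome read in 1 colour (Cy3), was hybridised with total RNA of a mouse embryonic stem (ES) cell line grown on gelatin in serum with LIF, the cytokine that keeps such cells undifferentiated. Wild-type lines (15-1+/+, 15-2+/+) had received no vector. The mock lines (15-1CT/CT, 15-2-/-) lacked ECAT15-2, which is Dppa2, carried the conditional targeted (CT) allele of ECAT15-1, which is Dppa4, on both chromosomes, and had received the empty piggyBac-CAG-IP vector. Dppa2 loss, the Dppa4 allele and the vector therefore differ together between the groups and cannot be told apart. All 3 Y-linked genes tested were also lower in mock, and differences that go with the Y chromosome cannot be told apart from these either. All lines came from blastocysts of an intercross of 15-1+/CT, 15-2+/- mice on a mixed 129Sv and C57/BL6 background, with further strains of unknown background crossed in. Replicate 1 of each group came from one mother and replicate 2 from another, and each array holds 1 line, so that a line's own history is part of every difference. The remaining 2 arrays of the series, the same knockout lines with Flag-tagged Dppa2, entered only the estimate of the spread and are quoted where a value of a mock line is set beside that of its sister culture.

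Dppa2 and its paralogue Dppa4 are small nuclear proteins with a SAP domain, a DNA-binding fold. They are made in the early embryo, in pluripotent cells and in germ cells, and bind chromatin as a pair. They are known for keeping promoters of developmental and germline genes free of DNA methylation and open to activation in ES cells, and for acting upstream of genes of the earliest cleavage stages.

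The 4 arrays had between 55.9% and 60.4% of probes well above background, a 75th percentile of 744 to 856 intensity units and no saturated spot, and their number limits the precision. Levels are given as log2 signal minus that of the array's own 75th percentile. The 2 wild-type arrays were nearly identical: of 15264 bright spots 6 differed more than 2-fold between them and 0.491% lay beyond the scanner's own 95% error limit, where 5% are due. Between the mock arrays these were 570 spots and 22.4%. A gene is called higher or lower where limma, fitted to all 6 arrays as 3 groups, gave a Benjamini-Hochberg adjusted p under 0.05. That fit counts the wild-type arrays as 2 samples. With both averaged into 1 sample limma called 0 genes, with 1696 at an unadjusted p under 0.05 and a smallest adjusted p of 0.122, so every call below rests on the wild-type arrays being separate samples. For this reason the value on every array is given for many of the genes called, and the text also gives the number of genes at least 2-fold apart on every pair of a mock and a wild-type array, which needs no estimate of the spread.

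Dppa2 itself stood at 2.13 and 2.07 in wild type and at -2.09 and -2.003 in mock, with log2 difference -4.15 (SE 0.16, limma adjusted p = 0.00565). The groups lay far apart and both mock arrays were still well above background. Whether the probe lies in the deleted part of the gene was not checked. Dppa4 stood at 2.96 and 2.99 in wild type and at 3.47 and 3.67 in mock, both higher, without being called (limma adjusted p = 0.0698). Of the ES cell markers 13 were on the array, all 13 were well above background on all 4 arrays, and 1, Utf1, was called higher, though not in the fit with the replicate number as a block. Their summed level (log2) was 9.53 and 9.50 in wild type and 9.94 and 10.005 in mock. Markers of fibroblasts and feeder cells moved the other way, with summed levels of 5.99 and 6.10 against 5.58 and 5.07. Of 16 tested 3 were called lower (18.8% against 4.07% of all genes). Their median difference from the wild-type mean was uneven, -0.89 in line 1 and -2.68 in line 2. Trophoblast markers, led by the keratins Krt8 and Krt18, summed to 6.09 and 6.12 against 5.42 and 4.43. By limma 0 of 7 were called and 3 had an unadjusted p under 0.05, as 3809 of all 13307 genes tested had. Cdx2, their defining transcription factor, stood at -3.02 and -3.48 against -1.59 and -3.20. Fewer cells of a type and less RNA per cell cannot be told apart in such bulk samples, and the part of these marker shifts in the results below was not tested.

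Of 13307 genes tested, 892 (6.7%) were called, 350 higher (2.63%) and 542 lower (4.07%) in mock. With the replicate number, which stands for the mother and within the knockout for the line, as a block limma called 390, 72 higher (0.541%) and 318 lower (2.39%). Named genes that were not called in that blocked fit are listed with each group below. By size alone, 952 genes (7.15%) were at least 2-fold apart on every pair of arrays and the directions were far less even: 822 genes (6.18%) were lower and 130 (0.977%) higher. Genes that met both criteria numbered 409 lower (3.07%) and 85 higher (0.639%). Losses were thus deeper than gains by these counts. The weakest signal well above background was -6.40 on both wild-type arrays and -6.83 and -6.95 on the mock arrays. A loss that ends at this limit can therefore span more than a gain that starts from it. Among the 11905 genes well above background on all 4 arrays, 328 were called higher with a median of 1.79-fold and 309 lower with a median of 2.46-fold. Most of these changes were small, with 321 under 2-fold, 230 between 2- and 4-fold, 59 between 4- and 8-fold and 27 of 8-fold or more.

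**Figure D1:**
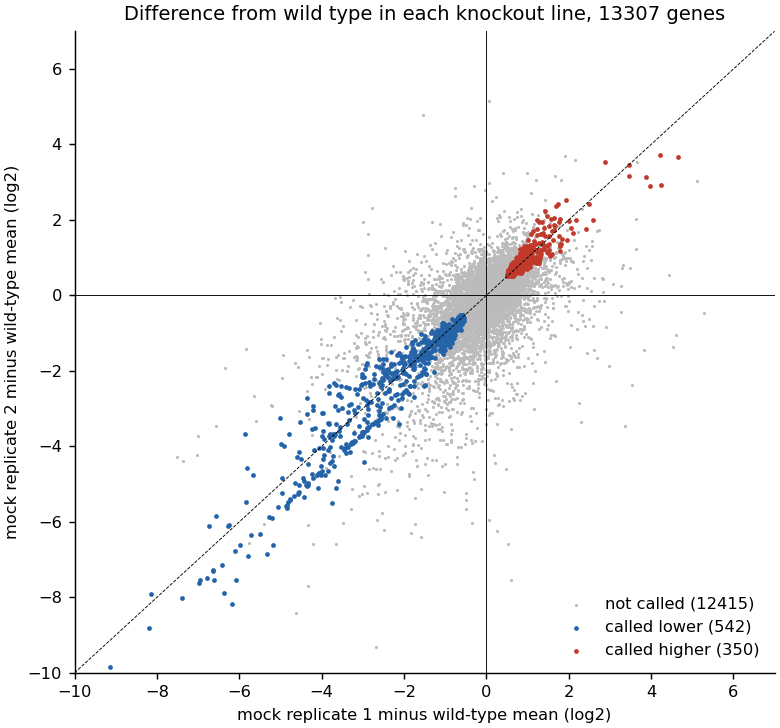
Each point is 1 of 13307 genes. The x axis gives the log2 difference of mock replicate 1 from the wild-type mean and the y axis that of mock replicate 2, with called genes in colour (542 lower, 350 higher) and the dashed line marking equal differences. The deepest called loss (Eif2s3y, on the Y chromosome) lies at a mean difference of -9.50 and the largest called gain (Barx1) at 4.16. Many grey points lie far from 0 in 1 line only.

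The direction of small differences depends on how arrays are scaled. The median difference of all genes was 0.03 with the 75th percentile and 0.26 with each array's median as the reference, which turned the split of calls to 1251 higher and 538 lower, so small shifts of groups of genes are given relative to all genes. The number of genes called lower hardly moved with that choice.

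Genes that ended below background formed the deepest losses. A signal well above background in wild type, on both arrays, and on no mock array was found for 290 genes, of which 272 met the 2-fold rule and 175 were called lower. The opposite switch, from neither wild-type to both mock arrays, was shown by 203 genes, of which 30 met the 2-fold rule and 18 were called higher. Genes were kept where 2 or more arrays of the series were well above background. Both kinds of switch therefore pass by definition, through the group in which they were bright, and their counts are no test. Without this filter limma called 280 genes lower and 25 higher. Among the losses Eif2s3y of the Y chromosome came first. All 3 Y-linked genes tested were lower, so its loss cannot be told apart from a difference in the Y chromosome between the lines. The germ cell genes Psma8, Syce1 and Ddx4 followed, and beside them stood genes of other tissues and functions. Hmgn3, which encodes a nucleosome-binding protein, was at -0.43 and -0.60 in wild type and at -7.17 and -7.82 in mock, at least 83.0-fold lower. Nefm, the middle subunit of neurofilaments, was at -0.53 and -0.51 against -6.95 and -7.66, at least 82.8-fold lower. These are differences from a clear signal to the array's floor. Ccnb1ip1, a ubiquitin ligase that acts at meiotic crossovers, stood at -0.38 and -0.46 against -7.16 and -6.54 and was at least 77.2-fold lower. Gsdme, which encodes the pore-forming protein gasdermin E, stood at -0.68 and -0.73 against -7.34 and -7.98 and was at least 73.0-fold lower. The smallest adjusted p-values included Fam178b, at least 63.5-fold lower (limma adjusted p = 0.00176), although its 2 dimmer probes fell less, by 2.09 and 2.88 on the log2 scale. Fermt1, which encodes the integrin activator kindlin-1, went from -3.01 and -2.90 to -7.03 and -7.01, at least 15.3-fold lower (limma adjusted p = 0.00266). Such a bound divides the brighter mean by a floor, taken on each dim array as the weakest signal that still counted as well above background, or as the probe's own signal where that was higher.

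Among genes still measured on all 4 arrays, Prxl2a, a peroxiredoxin-like gene, had the largest loss. It stood at 1.91 and 2.01 in wild type and at -3.54 and -4.36 in mock (log2 difference -5.91, SE 0.31, limma adjusted p = 0.00783), 60.1-fold lower. Cyct, the cytochrome c of the testis, went from 1.84 and 1.82 to -3.01 and -3.80 (log2 difference -5.24, SE 0.30), 37.7-fold lower. In both genes line 2 lay below line 1 and neither came near wild type. Khdc3, a component of the maternal complex of the oocyte cortex and one of the brightest in this group, went from 3.65 and 3.69 to -1.33 and 0.42, 17.5-fold lower with its 2 mock lines far apart and not called in the blocked fit. Nod1, the cytosolic sensor of bacterial peptidoglycan, went from 2.88 and 2.97 to -1.68 and -1.35, 21.7-fold lower (SE 0.14 of a log2 difference of -4.44). Mogat2, an acyltransferase of triglyceride synthesis, went from 0.16 and 0.08 to -3.63 and -5.38, and Gpat2, a glycerol-phosphate acyltransferase of the testis, from 0.10 and 0.06 to -3.72 and -3.94. Both lipid enzymes were thus low in each line, Mogat2 24.6-fold and Gpat2 15.1-fold. Crym, which encodes mu-crystallin, a binder of thyroid hormone, fell by 4.26 on the log2 scale, and H2-Q8, a class I gene of the major histocompatibility complex, fell 13.8-fold. Prrc1 had the highest wild-type level of the 15 genes with the largest measured losses, at 4.25 and 4.28, and stood at 0.57 and 0.56 in mock, 13.0-fold lower on this probe and at a log2 difference of -2.35 on its other probe. The 3 transcripts without an assigned role, 1700029P11Rik, 1700019A02Rik and D630039A03Rik, fell 29.9-, 20.9- and 14.5-fold.

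**Figure D2:**
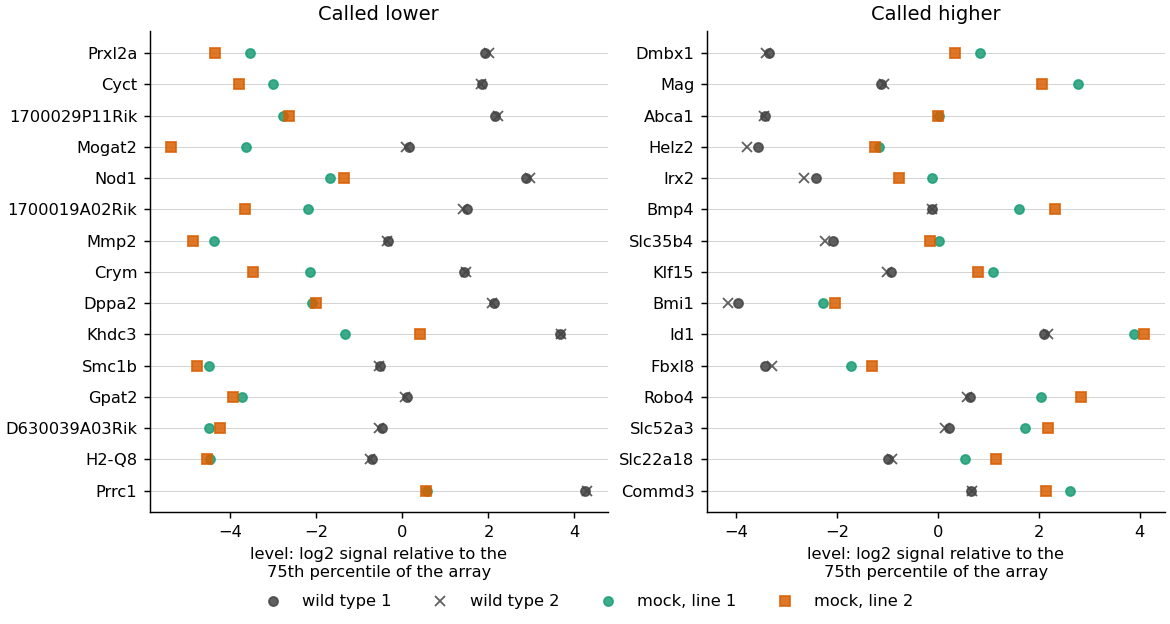
The 15 genes called lower (left) and the 15 called higher (right) with the largest differences among those well above background on all 4 arrays. The x axis gives the level as log2 signal relative to the 75th percentile of the array, with 1 symbol per array. In all 30 genes the wild-type pair lies close together and apart from both mock lines, which their choice by large called differences brings about. Over all 13307 genes tested, both mock arrays lay above both wild-type arrays at 4856 and below both at 4152.

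The promoters of the genes that fell were poorer in CpG, the dinucleotide that DNA methylation acts on, than promoters at large. In the 250 bases before the start of each gene (RefSeq, build GRCm38.p6, 10616 of 13307 tested genes matched) the ratio of observed to expected CpG had a median of 0.714 over all genes tested, 0.561 over 415 genes called lower and 0.681 over 292 called higher. Over 133 genes called lower that went from both wild-type to neither mock array it was 0.432, and 30.1% of these promoters exceeded 0.6 against 64.6% of all. Over the 12 matched genes called higher that went from neither wild-type to both mock arrays the median was 0.475, so low values were found at switches in either direction. These values describe the groups without a test. The spread within them is wide, as 4 lost and 2 gained genes show, printed 5′ to 3′ in the direction of transcription with each CG in capitals.
Khdc3: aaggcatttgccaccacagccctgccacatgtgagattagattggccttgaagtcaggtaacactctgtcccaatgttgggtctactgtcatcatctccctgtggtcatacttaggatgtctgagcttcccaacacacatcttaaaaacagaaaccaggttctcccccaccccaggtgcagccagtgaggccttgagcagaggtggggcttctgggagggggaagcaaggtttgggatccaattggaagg
Cyct: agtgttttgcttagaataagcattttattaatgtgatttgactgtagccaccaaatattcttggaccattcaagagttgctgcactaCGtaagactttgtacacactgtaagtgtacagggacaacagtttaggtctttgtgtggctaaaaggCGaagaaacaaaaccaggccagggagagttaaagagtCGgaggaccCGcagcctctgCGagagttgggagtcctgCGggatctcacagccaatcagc
Syce1: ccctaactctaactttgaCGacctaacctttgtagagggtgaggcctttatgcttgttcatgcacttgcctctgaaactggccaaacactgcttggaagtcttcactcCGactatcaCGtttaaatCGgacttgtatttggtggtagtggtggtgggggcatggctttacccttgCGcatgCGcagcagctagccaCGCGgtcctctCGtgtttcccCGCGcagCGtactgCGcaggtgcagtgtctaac
Ddx4: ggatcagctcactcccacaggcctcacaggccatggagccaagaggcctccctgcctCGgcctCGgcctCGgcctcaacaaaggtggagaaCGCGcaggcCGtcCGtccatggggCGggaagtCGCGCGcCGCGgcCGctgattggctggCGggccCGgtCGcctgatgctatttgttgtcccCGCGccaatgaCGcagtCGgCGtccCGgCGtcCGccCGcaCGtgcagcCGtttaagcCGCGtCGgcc
Zic1: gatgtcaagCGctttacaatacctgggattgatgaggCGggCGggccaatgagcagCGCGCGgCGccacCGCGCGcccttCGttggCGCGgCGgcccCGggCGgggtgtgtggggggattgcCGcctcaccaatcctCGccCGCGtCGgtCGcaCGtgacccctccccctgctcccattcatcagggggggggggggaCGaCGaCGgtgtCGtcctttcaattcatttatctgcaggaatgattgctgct
Barx1: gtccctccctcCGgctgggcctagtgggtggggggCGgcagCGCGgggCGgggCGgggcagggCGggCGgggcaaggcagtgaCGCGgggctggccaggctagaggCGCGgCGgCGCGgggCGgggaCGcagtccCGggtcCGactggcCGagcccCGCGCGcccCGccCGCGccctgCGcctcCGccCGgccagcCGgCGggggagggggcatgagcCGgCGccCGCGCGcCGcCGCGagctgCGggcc
These windows are chr9:73102148-73102397 (plus strand) for Khdc3, chr2:76360454-76360703 (minus strand) for Cyct, chr7:140787855-140788104 (minus strand) for Syce1, chr13:112652311-112652560 (minus strand) for Ddx4, chr9:91365769-91366018 (minus strand) for Zic1 and chr13:48662786-48663035 (plus strand) for Barx1. They lie directly upstream of the annotated start and hold 0, 6, 13, 31, 27 and 40 CpG in that order, against a median of 15 over all genes tested, so that deep losses occurred at a promoter without any CpG and at one dense in CpG alike. The letters CACGTG, the same on both strands, were in 8.43% of promoters of genes called lower, 12.3% of those called higher and 8.49% of all. GCGGGAA or its reverse complement was in 6.02%, 5.48% and 6.91%.

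The largest measured gain was that of Dmbx1, a homeobox gene of the brain, from -3.35 and -3.41 to 0.83 and 0.34, 15.7-fold, though its other probe lay at 0.95. Mag, a glycoprotein of myelin, went from -1.12 and -1.06 to 2.79 and 2.06, 11.4-fold higher. Abca1, an exporter of cholesterol, went from -3.43 and -3.44 to 0.02 and 0.01, 10.9-fold higher, and Helz2, a helicase and nuclear receptor coactivator, rose 5.50-fold. All 4 genes were higher in both lines. Bmp4, the secreted ligand of BMP receptors, stood at -0.12 and -0.11 in wild type and at 1.62 and 2.32 in mock, 4.23-fold higher (limma adjusted p = 0.0413). Id1, a target gene of BMP signalling that blocks basic helix-loop-helix factors, went from 2.10 and 2.18 to 3.89 and 4.08, 3.60-fold higher (limma adjusted p = 0.00901), with its other probe at 1.75. In both genes the mock arrays lay above both wild-type arrays, as they did at 4856 of 13307 genes tested. Robo4, a Roundabout receptor known from endothelium, went from 0.65 and 0.57 to 2.04 and 2.84, 3.57-fold higher. Several transcriptional regulators rose as well. Irx2, an Iroquois homeobox gene, went from -2.42 and -2.65 to -0.10 and -0.78, 4.27-fold higher on this probe and at 1.98 and 2.64 on its 2 other probes. Klf15, a zinc finger factor of metabolic genes, went from -0.93 and -1.01 to 1.09 and 0.81, 3.77-fold higher, with 1.97 on its other probe. Ripply3, a corepressor of T-box factors, went from -3.45 and -3.29 to -1.73 and -1.63, 3.22-fold higher (limma adjusted p = 0.00904), with 1.90 on its other probe. The probes of these 3 genes gave similar sizes. Bmi1, a subunit of Polycomb repressive complex 1, was 3.75-fold higher on a dim probe and at -0.09 on its other probe, so its direction is not settled. Its neighbour Commd3 went from 0.65 and 0.69 to 2.63 and 2.15, 3.29-fold higher. The transporters Slc52a3, which takes up riboflavin, and Slc22a18, an imprinted gene, rose 3.46- and 3.45-fold. For Slc35b4, a carrier of nucleotide sugars, the 4.23-fold gain of its probe stood against 0.48 and 0.56 log2 units on its other 2 probes. Robo4, Bmi1, Commd3 and Slc52a3 were not called in the blocked fit.

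Of the 18 genes called from below background in wild type Barx1, a homeobox gene, came highest, at -0.74 and -1.74 in mock. Beside it, Zic1, Pcdhb14, Olfr164, Gdpd4 and Lhx5 the group included Ajap1, a protein of adherens junctions, at least 4.70-fold higher, Chrnb2, a subunit of the nicotinic acetylcholine receptor, at least 3.98-fold, Zmynd10, an assembly factor of ciliary dynein, at least 3.67-fold, and Cdx1, a caudal-type homeobox gene, at least 3.38-fold higher. Ajap1 reached -3.16 and -2.58 and Cdx1 -3.44 and -3.27. Pcdhb14, Lhx5 and Cdx1 were not called in the blocked fit.

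Genes called higher were not spread evenly over the chromosomes. Chromosome 6 held 60 of them among its 641 genes tested, 9.36% against 2.63% of all genes, and the other chromosomes together 290. In the blocked fit it held 11 (1.72% against 0.541% of all genes). Its share called lower was 3.43% against 4.07%. The description by neighbouring genes that follows was chosen after the values were seen and has no test. In blocks of about 20 neighbouring genes well above background on all 4 arrays, the median of both lines lay above 0.3 log2 units in 15 of 596 blocks, 7 of them among the 28 blocks of chromosome 6. Those from Ndufa5 to Dok1, 9 blocks and 180 genes, had 40 genes called higher (22.2%) and 3 lower. The block medians there ran from 0.12 to 0.68 in line 1 and from 0.14 to 0.61 in line 2, with the lowest values in the block from Crhr2 to Gng12. The rest of the chromosome had 16 higher and 4 lower among 372 genes, with no block median above 0.3 in either line.

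The genes of this stretch are of many kinds, and most of their gains were under 2-fold. Polr1a, the largest subunit of RNA polymerase I, stood at 3.23 and 3.23 in wild type and at 4.29 and 4.30 in mock. Lsm5, a component of the spliceosome's Lsm ring, stood at 3.36 and 3.36 against 4.45 and 4.45. Suclg1, a subunit of the succinate-CoA ligase of mitochondria, stood at 4.31 and 4.26 against 5.02 and 5.23. Polr1a and Lsm5 show shifts of about the same size in both lines and hardly any spread, while Suclg1 rose more in line 2 than in line 1. These 3 genes were chosen after their values were seen. The respiratory chain subunit Ndufb2, the histone demethylase Kdm3a, the stress gene Gadd45a and the apoptosis factor Cycs lie in this stretch too, at log2 differences of 0.91, 0.91, 1.09 and 0.71. Of the genes named here Suclg1, Ndufb2, Kdm3a, Gadd45a and Cycs were not called in the blocked fit. Deep losses occurred within the stretch too, among them Nod1, Gsdme and Reg2. In the same lines with Flag-Dppa2 the medians over all of chromosome 6 were 0.22 and 0.16, beside 0.17 and 0.13 in mock.

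Chromosome 8 differed between the mock lines. Over the 653 genes of this chromosome measured on all 4 arrays its median lay at -0.01 in line 1 and at 0.46 in line 2, while the medians of all genes were 0.04 and 0.05. In line 2 80.25% of these genes lay above the wild-type mean and in line 1 49.0%, against 55.1% and 54.4% of all genes. The shift ran along the whole chromosome, with 26 of 33 blocks above 0.3 in line 2 and 0 in line 1. Cox4i1, a core subunit of cytochrome c oxidase, stood at 7.20 and 7.20 in wild type, 7.14 in line 1 and 7.69 in line 2. The sister cultures with Flag-Dppa2 repeated it, with medians of -0.01 in line 1 and 0.42 in line 2. The test of both lines together called 13 of its genes higher and 12 lower among 717 (3.49%, against 6.7% of all genes). DNA copy number was not measured. The blocks and the gene named here were chosen after their values were seen.

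**Figure D3:**
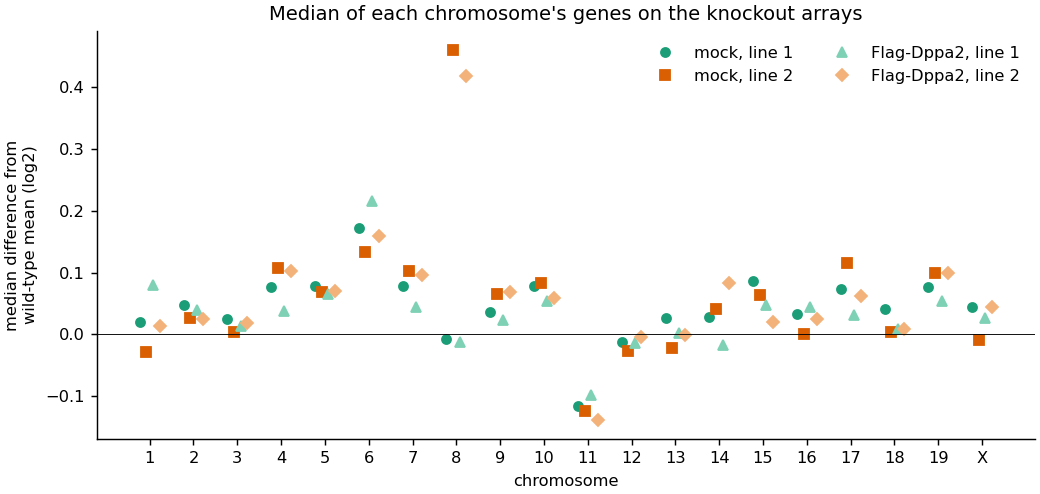
The median log2 difference from the wild-type mean is given per chromosome for each of the 4 knockout arrays, over genes well above background on the wild-type and mock arrays. Chromosome 8 stands at 0.46 in mock line 2 and 0.42 in its Flag-Dppa2 culture but near 0 in line 1, chromosome 6 is raised in all 4 and chromosome 11 lowered in all 4, although with median scaling the mean shift of chromosome 11 in mock is 0.11, below that of all genes but above 0.

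**Figure D4:**
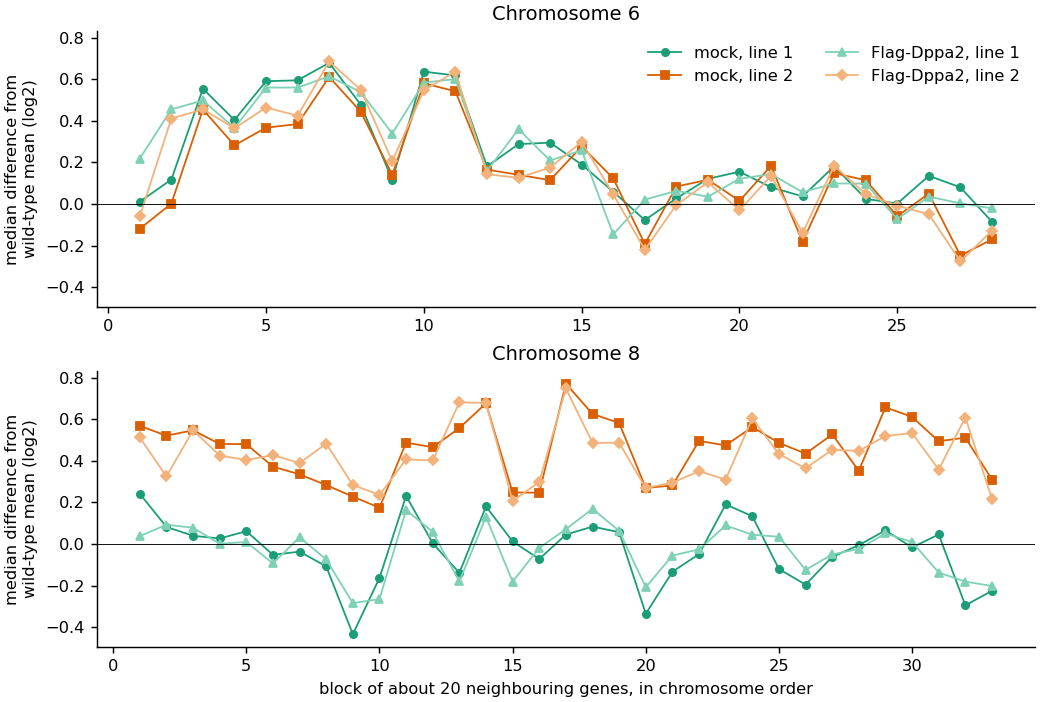
Medians of blocks of about 20 neighbouring genes are drawn in chromosome order (x axis) as log2 differences from the wild-type mean (y axis), with 28 blocks on chromosome 6 and 33 on chromosome 8. On chromosome 6 all 4 knockout arrays are raised together over the blocks from Ndufa5 to Dok1, and on chromosome 8 both arrays of line 2 lie above both arrays of line 1 in every block.

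Chromosome 11 lay below the other genes in both lines. Its 1141 genes tested included 71 called lower (6.22% against 4.07%) and 15 higher, and its median over 1017 measured genes was -0.12 in line 1 and -0.12 in line 2, with 35.6% and 38.8% of genes above wild type. Relative to all genes this shift was -0.16 with the main scaling and between -0.16 and -0.18 with the 4 other scalings tried, while its own median turned to 0.11 with median scaling. On the X chromosome 31 of 451 genes were called lower (6.87%) and 12 higher. Among them were Gpc3, a glypican, at 1.35 and 1.25 against -0.49 and -0.65, and Nr0b1, the orphan receptor Dax1, at 3.74 and 3.76 against 4.64 and 4.85. With the block chromosome 11 had 39 genes called lower (3.42% against 2.39% of all) and the X chromosome 16 (3.55%), and Gpc3 was not called. All 3 Y-linked genes tested fell, and differences that go with the Y chromosome cannot be told apart from those of genotype. Without chromosomes 6, 8, X and Y the count was 265 higher and 474 lower among 11495 genes. Chromosome 11, with its 71 genes called lower, was kept in this count.

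Among enzyme families, cytochrome P450 genes and glutathione transferases had shares of losses above that of all genes (4.07%). Of 38 cytochrome P450 genes 6 fell and 1 rose (18.4% called). Cyp1b1, which oxidises steroids and xenobiotics, was at -2.99 and -3.14 in wild type and not well above background in mock, at least 14.2-fold lower, and Cyp2c23, an epoxygenase of arachidonic acid, was at least 12.5-fold lower. Relative to all genes the family median was -0.43 with the main scaling and -0.02 after normexp background correction with quantile normalization. Of 21 glutathione transferases 3 fell and 1 rose (19.0% called). Gstm5 had the deepest loss, from 0.71 and 0.66 to -5.88 and -5.17, with 1 of 2 mock arrays above background. Gstt1 was at least 7.86-fold and Mgst2 4.35-fold lower, while Gstt3 was 1.63-fold higher. Gpx3, the secreted glutathione peroxidase, went from -0.73 and -0.81 to -4.37 and -3.81, 9.98-fold lower, and with Prxl2a made up the losses among 26 redox genes. Other metabolic lists were closer to the share of all genes called (6.7%), with 7.69% of redox genes, 7.14% of nucleotide metabolism genes and 5.38% of respiratory chain subunits. In pyrimidine metabolism Upb1, beta-ureidopropionase, was at least 42.7-fold and Cda, cytidine deaminase, at least 5.00-fold lower, the 2 calls among 28 nucleotide metabolism genes. Of 93 respiratory chain subunits 2 fell and 3 rose. Those that fell, Cox8c at least 12.7-fold and Cox7b2 at least 3.67-fold, are forms known from testis, and Ndufb2, Ndufa4 and Atp5l rose 1.88-, 1.72- and 1.54-fold, the first 2 of them on chromosome 6. In the blocked fit Cyp2c23, Gstt3, Gpx3, Cox7b2, Ndufb2, Ndufa4 and Atp5l were not called.

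Transport across membranes changed in both directions. Of 248 solute carriers 14 fell and 12 rose (10.5% called against 6.7% of all genes). In the blocked fit 7 fell and 4 rose (2.82% and 1.61%, against 2.39% and 0.541% of all genes). Slc39a8, an importer of zinc and manganese, was at -2.54 and -2.54 in wild type and at -6.98 and -7.45 in mock, at least 20.4-fold lower. Slc26a4, the anion exchanger pendrin, and Slc10a4, a vesicular member of the bile acid carrier family, were at least 8.08- and 8.19-fold lower. Among those that rose, Slc6a6, the taurine transporter, went from 2.38 and 2.50 to 3.50 and 3.41, 2.02-fold. Of 26 ABC transporters 3 rose and 1 fell (15.4% called), and 2 rose and 0 fell in the blocked fit. While Abca1 rose, its fellow cholesterol exporter Abcg1 was 2.04-fold lower, and Abcc4, which exports cyclic nucleotides, was 2.32-fold higher. In the blocked fit Slc39a8, Slc6a6 and Abcg1 were not called.

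**Figure D5:**
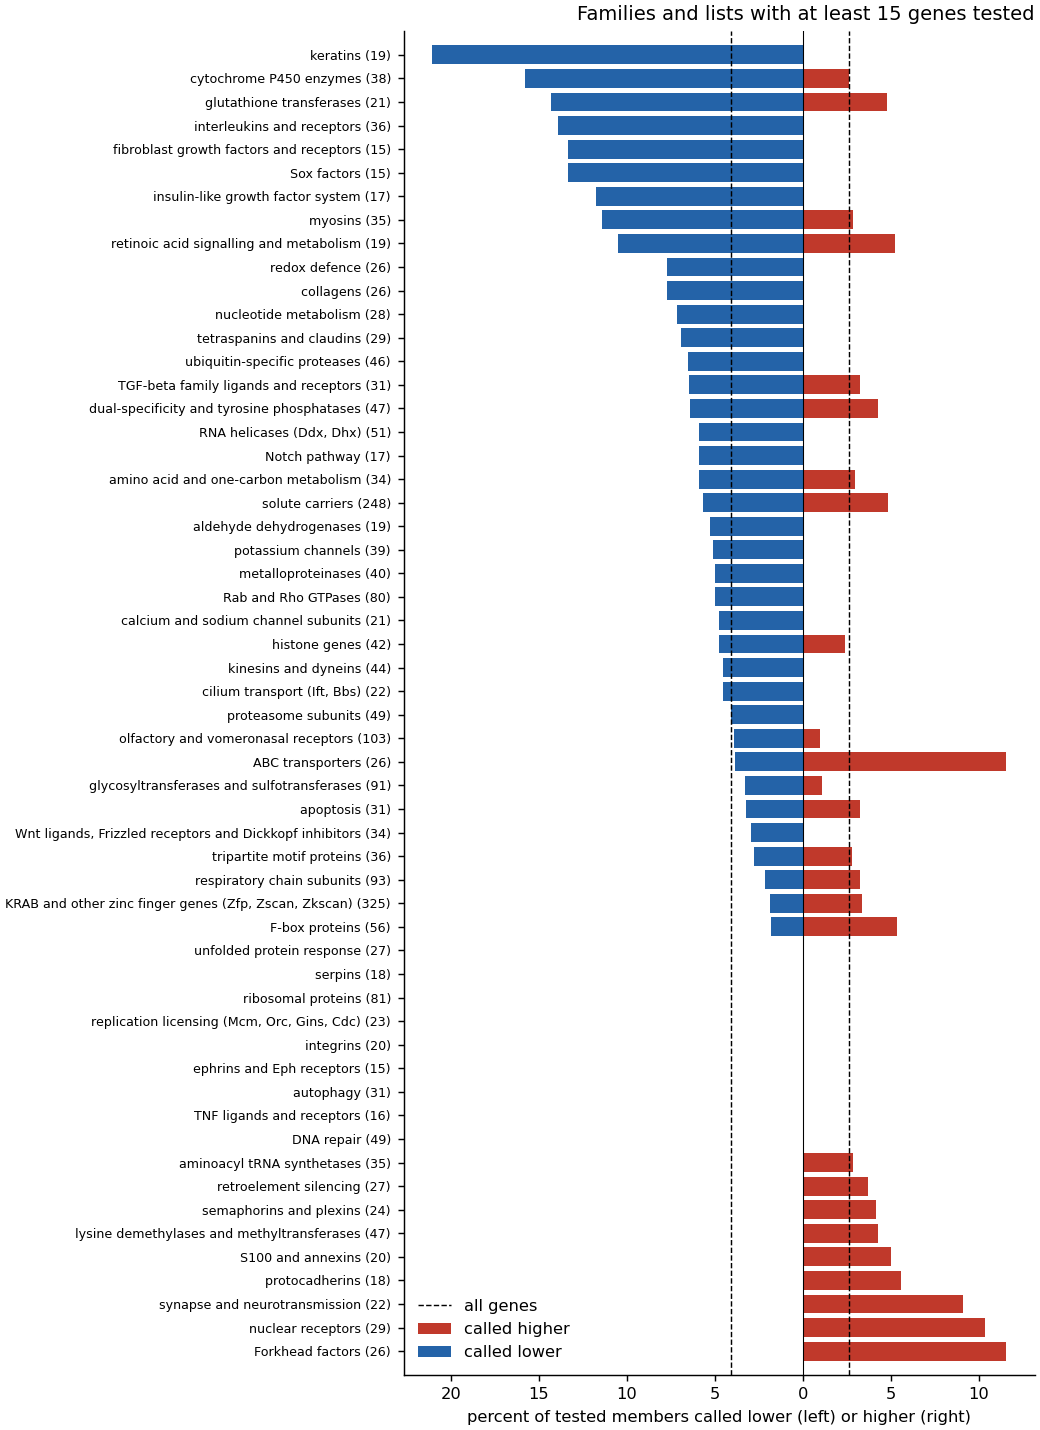
Bars give the percentage of tested members called lower (left, blue) and higher (right, red) in each family or list, cell type marker lists left out, with at least 15 genes tested, with the number tested in brackets and dashed lines at the percentages of all genes (4.07% lower, 2.63% higher). Keratins, cytochrome P450 enzymes and glutathione transferases lead on the left and ABC transporters and Forkhead factors on the right, while ribosomal proteins and DNA repair have no call.

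Of 19 keratins, the filament proteins of epithelia, 4 fell and 0 rose (21.1% called against 6.7% of all genes), and 1 of them, Krt23, was called in the blocked fit. Their median relative to all genes was -1.15 with the main scaling and -0.64 after normexp with quantile normalization. Krt12, the keratin of the corneal epithelium, was at least 9.18-fold lower, Krt23 at least 4.74-fold, Krt222 at least 3.44-fold and Krt14, of basal epidermis, 2.10-fold lower. All 4 lie on chromosome 11. Krt8 stood at 4.66 and 4.68 against 3.83 and 2.89 and was not called (limma adjusted p = 0.378). Of 35 myosin genes 4 fell and 1 rose (14.3% called). Myh3, the embryonic muscle heavy chain, went from -0.29 and -0.26 to -3.10 and -2.63, a log2 difference of -2.58 (-3.11 on its other probe). Myh8, the perinatal heavy chain, fell 4.63-fold and Myl4, the atrial light chain, 4.18-fold. Cldn5, the claudin of endothelial tight junctions, was at -1.45 and -1.23 against -7.15 and -5.91, at least 32.7-fold lower, and Col17a1, a collagen of hemidesmosomes, was at least 19.7-fold lower. Endothelial markers included the angiopoietin receptor Tek, 5.02-fold lower, the 1 call among the 3 endothelial markers tested. Their summed level was 2.90 and 2.95 in wild type and 2.51 and 2.88 in mock. Of these genes Krt12, Krt222, Krt14, Myh3, Myl4 and Col17a1 were not called in the blocked fit. Integrins and laminins had 0 calls by limma among 20 and 8 genes, with 6 and 3 at an unadjusted p under 0.05. Over all genes 3809 of 13307 had such a p (limma).

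Among the lists of secreted ligands and their receptors the share called was lowest for TNF genes, 0 of 16 by limma. It ran through 2.94% of Wnt, Frizzled and Dickkopf genes to 13.9% of interleukins and their receptors, against 6.7% of all genes. Of the TNF genes 4 had an unadjusted p under 0.05, as 3809 of all 13307 genes had (limma). In the TGF-beta family, 31 genes tested (9.68% called), Tgfbr2, the type II receptor, was at -2.49 and -2.13 in wild type and below background in mock, at least 13.0-fold lower. Gdf1, a Nodal partner, went from 2.83 and 2.91 to -0.07 and 0.55, 6.19-fold lower, while Bmp4 rose. Dll3, a divergent Notch ligand, went from 0.66 and 0.52 to -1.18 and -1.18, 3.40-fold lower, the 1 call among 17 Notch pathway genes (5.88%). Fzd2, a Wnt receptor, went from 1.43 and 1.37 to -0.12 and -0.01, 2.76-fold lower, the 1 call among 34 Wnt, Frizzled and Dickkopf genes. Both were alike in the 2 mock lines. In retinoic acid metabolism Crabp1, which binds retinoic acid in the cytoplasm, and Cyp26a1, which degrades it, fell 2.92- and 2.89-fold, and the receptor gene Rarg rose 1.87-fold, though its other probe lay at 0.25. Interleukins and their receptors had 5 of 36 called lower and 0 higher, all of them dim. Il1r2, a decoy receptor of interleukin 1, was at least 10.6-fold and Il23a at least 8.70-fold lower. Dusp26, a dual-specificity phosphatase, was 21.3-fold lower with 1 of 2 mock arrays above background, and its relative Dusp9, an inhibitor of ERK kinases, rose from 2.72 and 2.73 to 3.67 and 3.65, 1.91-fold. Tgfbr2, Crabp1 and Rarg were not called in the blocked fit.

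Of 325 zinc finger genes 11 rose and 6 fell, a share of 5.23% that lies near the 6.7% of all genes, among them Zfp608, 6.12-fold lower. Of 26 genes with Forkhead symbols 3 rose and 0 fell (11.5% called). Foxp4 rose 2.56-fold, Foxa3 1.98-fold and Foxd2os, a non-coding neighbour of Foxd2, 1.66-fold. Of 15 Sox factors 2 fell (13.3% called), Sox18 from -2.33 and -2.24 to -4.46 and -4.89 and Sox6 to below background. H2ax, the histone variant of DNA damage signalling, went from 5.74 and 5.66 to 6.92 and 6.72, 2.17-fold higher. It was the 1 gene called higher among 42 histone genes, of which 7.14% were called in either direction, near the 6.7% of all genes. The 2 called lower were linker histones, the testis form H1f6 at least 4.83-fold and H1f0 1.97-fold, the latter with log2 differences of -0.54 and -0.07 on its other probes. In the blocked fit Foxa3, Foxd2os, Sox18 and H1f0 were not called. Some lists of basic cell functions had calls at shares below the 6.7% of all genes. These were RNA helicases (3 lower of 51, 5.88%), proteasome subunits (2 lower of 49, 4.08%) and aminoacyl tRNA synthetases (1 higher of 35, 2.86%), among others. The lists of replication licensing, ribosomal proteins, DNA repair, autophagy and the unfolded protein response, grouped here after their counts were seen, held 211 genes and had 0 calls by limma and 36 genes at an unadjusted p under 0.05, which 3809 of all 13307 genes had (limma).

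The 2 mock lines differed from each other at many genes. Of the 11905 genes measured on all 4 arrays, 996 differed more than 2-fold between them, 189 more than 4-fold and 39 more than 8-fold, against 55, 14 and 2 between the wild-type arrays. Line 1 was the higher one in 657 and line 2 in 339, and 53 of the latter lie on chromosome 8 (8.12% of its genes). From the wild-type mean, line 1 differed more than 2-fold at 1001 genes and line 2 at 1368, with 515 shared in direction and 17 opposite. With 1 array per line these differences have no replicate check within mock. Gabarapl1, an autophagy protein of the Atg8 family, had the widest gap, with 3.75 and 3.79 in wild type, 4.36 in line 1 and -3.78 in line 2. Nnat, an imprinted gene for the membrane protein neuronatin, stood at -0.21 and -0.11 in wild type, 0.36 in line 1 and -6.75 in line 2. Zfp874a, a zinc finger gene, stood at -0.10 and -0.18 in wild type, 0.12 in line 1 and -6.39 in line 2. In all 3 genes line 1 lay above wild type and line 2 far below it, with Gabarapl1 still above background there and at a mean difference of -2.77 on its other probe. Dpys, dihydropyrimidinase, did the reverse, with -3.03 and -2.86 in wild type, -4.49 in line 1 and 1.83 in line 2. In the Flag-Dppa2 cultures Nnat stood at 0.29 and -5.65, Zfp874a at 0.06 and -6.76, and Dpys at -4.07 and 1.96 in line 1 and line 2. In these 3 genes the gap between the lines was present with either vector. None of these 4 genes was called by limma (adjusted p of 0.493 to 0.759).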

How the data were processed

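Per the file headers, the deposited intensity values were extracted by the authors with Agilent Feature Extraction 10.7.3.1 (protocol GE1_107_Sep09, build mm9), which subtracts background and replaces the signal of very dim spots by a surrogate. For the series matrix the authors used GeneSpring GX, per the labels' design text, and deposited log2 values. They correlate with the scanner's log2 values and look quantile-normalized without centring, with column medians of 5.84 to 5.86, and served as 1 alternative.

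Of 45018 spots per array, 1639 controls and all spots with an outlier flag were omitted. Spots of a probe were averaged as log2 values, 41059 probes were kept, and 27143 were named with 1 of 18516 symbols through accessions and a reference table (GRCm38.p6, names, chromosomes and gene order only). From the log2 values each array's 75th percentile was subtracted. Kept were probes whose signal was well above background on 2 or more of 6 arrays, and for each symbol the brightest probe on average, which gave 13307 genes and 5467 probes without a symbol. limma 3.58.1 (R 4.3.3, lmFit and eBayes, prior df 1.41, residual df 3) was fitted to 3 groups of 2 arrays, and p-values were adjusted over all 18774 features, two-sided, after a test on simulated data. Figures used Python 3.11.15, pandas 2.3.3 and matplotlib 3.10.9.

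The replicate number stands for the mother, and for the line within the knockout. Deviations from the group mean of same-numbered arrays correlated at -0.04 for wild type and mock and at 0.59 for mock and Flag-Dppa2. The block assumes the same shift between replicate numbers in every group, which the value of -0.04 does not bear out for wild type. The fit without a block counts the mock and Flag-Dppa2 arrays of a line as independent. Its pooled spread also takes in the wild-type pair, with a median SD of 0.038 against 0.151 within mock. Its adjusted p-values may therefore be too small. Both fits, with and without the replicate as a block, were made, and blocked totals are printed beside the main ones. Labels name no separate cultures, so p-values measure the spread between these arrays. Named genes are, per direction, the 15 called genes with the largest differences measured on all 4 arrays, the 15 with the largest bounds, the 5 smallest adjusted p-values, up to 4 per family or list (71 in all) and the 8 widest gaps between mock lines; others (markers, genes named for their place on chromosomes 6, 8 and X, Krt8, Atp5l and Slc6a6) were chosen after their values were seen. The members and lists were chosen with earlier results of these data known. Alternatives were other scalings, normexp on the median signal and background (the files used here hold no mean signal), other filters, an intensity trend, every probe, only the 4 arrays, averaged wild-type arrays and leaving out each array.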

Additional observations from a re-analysis of the deposited data

How the results depend on the processing

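The total of 892 called genes was 1789 with median scaling, 1466 with an intensity trend, 305 without a filter on dim probes, 390 with the replicate block (375 of them among the 892) and 0 when both wild-type arrays were averaged. Leaving out 1 array gave 0 to 310, namely 0 without either wild-type array (1725 and 1736 genes at an unadjusted p under 0.05), 286 without mock replicate 1 and 310 without mock replicate 2. Genes called and at least 2-fold apart on every pair, 494, were 270 without the filter, 268 among genes measured on all 4 arrays, 0 with the wild-type arrays averaged and 0 to 270 without 1 array, again 0 without either wild-type array and 250 without mock replicate 1. Totals stayed within 1.5 times with quantile normalization (999), normexp (1224), the series matrix (1010) and every probe (830). They did so too with genes on all 4 arrays (800) and with only the 4 arrays (709). Of these calls 789, 781, 789, 830, 637 and 548, in that order, were among the 892, so the genes moved more than the totals. The 4 arrays share 1 slide. No separate slide block was fitted, since the other slide holds only Flag-Dppa2 arrays. The share of calls that were higher, 39.2%, was 69.9% with median scaling, 51.9% on all 4 arrays, 18.5% with the replicate block, 8.2% without the filter and 9.79% to 10.97% without a mock array.

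Dppa2 kept its direction and lost its call with the wild-type arrays averaged (-4.15, limma adjusted p = 0.136), and without wild-type replicate 1 or 2 (-4.12 and -4.18, adjusted p = 0.116 and 0.132), within a range of -4.19 to -4.10 without 1 array. Genes with a wide gap between the lines changed sign without mock replicate 2, where line 1 alone stands for mock. Without mock replicate 1 and without mock replicate 2, in that order, the values were 4.78 and -1.54 for Dpys, -4.60 and 0.47 for Evc, -5.94 and 0.0616 for Fpgt, -7.54 and 0.60 for Gabarapl1, -6.59 and 0.53 for Nnat and -6.25 and 0.26 for Zfp874a. Of 198 named genes 71 lost the call with the replicate block (34 of those called higher, 37 lower), 45 with only the 4 arrays, 103 without the filter on dim probes, 119 without mock replicate 1, 119 without mock replicate 2, 189 with the wild-type arrays averaged and 189 without either of them, against 14 with quantile normalization, 14 with the series matrix, 19 with normexp, 9 with median scaling, 6 with an intensity trend and 5 with every probe. The cause of the other changes was not tested. Among the 198 were genes without a call in the main fit, such as Dppa4, Dpys and Gabarapl1, which had none to lose. No named gene kept its call where the wild-type arrays were averaged or either was left out. Signals near background limit the size of the deepest losses to bounds.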
